A study of Drosophila melanogaster with 3 samples.

Results

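The genes described here act on the poly(A) tails and the translation of maternal mRNA in Drosophila melanogaster, and each was listed by the authors as the host of a stable intronic sequence RNA (sisRNA) in the unfertilized egg. A sisRNA is made from an intron and persists after splicing. The genes are rga, l(2)NC136 and twin, which encode subunits of the CCR4-NOT deadenylase, the RNA-binding protein gene BicC, and the hnRNP genes glo and sqd. They were chosen by symbol and function from hosts already seen in the list, so their presence in it is not a result. They make up 6 of the 295 hosts of the longer list, and 3 of them are among the 140 sisRNAs of the counted list.

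The RNA came from unfertilized eggs of y w flies, with 1 library each for the polyA-plus fraction, the polyA-minus fraction and the rRNA-depleted total RNA they were drawn from. The deposited read counts stand in a single column that names no library, so no fraction could be set against another and each value is a single one. How deeply each library was sequenced cannot be read from the lists, and the depth is unknown. Intervals on read counts are exact Poisson 95% intervals, intervals on shares are exact Clopper-Pearson 95% intervals, and both cover counting error only. The length of a sisRNA was not listed, so a read count mixes length with abundance and the genes cannot be compared per length. None of 13 maternal egg genes, 14 follicle cell genes or 13 zygotic genes taken as markers was listed as a host, and the lists record intronic RNA rather than mRNA, so they do not check the labelled tissue.

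CCR4-NOT is the main complex that shortens poly(A) tails, and a short tail lowers the translation and stability of an mRNA. It is brought to particular mRNAs by RNA-binding proteins. Since eggs and early embryos make little or no new RNA, they rely on such control of the RNA the mother supplied. BicC binds the NOT3 subunit and recruits the complex to mRNAs in the ovary, its own among them. In the Drosophila germ line, Glorund (the product of glo) represses translation of nanos mRNA outside the germ plasm, and Squid (the product of sqd) acts in the localization and translation of gurken mRNA.

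The authors listed, for each host, whether the hexamer aauaaa, the variant auaaaa or the variant auuaaa was found, where the first is the canonical poly(A) signal that directs cleavage and polyadenylation. They are shown because they are the only sequence recorded for these RNAs. The 6 genes fell into 3 patterns. The canonical aauaaa alone was listed for rga and l(2)NC136. Both aauaaa and auaaaa were listed for sqd, and since the run aauaaaa contains both hexamers, the 2 entries may come from 1 stretch. No hexamer was listed for twin, BicC and glo, and auuaaa was listed for none of the 6.

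No hexamer was found for 3 of the 6 genes (50%, 11.8% to 88.2%), against 71 of the 289 other hosts (24.6%, 19.7% to 29.9%). The background over all 295 hosts was 25.1%. The interval of the 6 genes contains the share of the other hosts. The genes are few and were chosen from the list, so this is a description and not a test. For aauaaa, alone or with another hexamer, the counts were 3 of 6 genes and 134 of 289 other hosts (46.4%). For auaaaa they were 1 of 6 genes and 83 of 289 other hosts (28.7%), and for auuaaa 0 of 6 genes (exact interval up to 45.9%) and 71 of 289 other hosts (24.6%). Where a gene stood in both lists the hexamers were the same, with aauaaa for rga and none for BicC and glo. The sources used here do not say which sequence was searched, so whether a hexamer lies in the intronic RNA itself is unknown.

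A read count was listed for 3 of the 6 genes, rga, BicC and glo (50%, 11.8% to 88.2%). The background was 46.4% of all 295 hosts, and the share among the 289 other hosts was likewise 46.4% (134 hosts, 40.5% to 52.3%), so the share of the 6 genes was near the background. Both groups with more than 1 gene held counted and uncounted hosts. Of the CCR4-NOT subunits rga was counted, and l(2)NC136 and twin were not. Of the hnRNP genes glo was counted and sqd was not. Genes with the same hexamers also differed in this. With aauaaa alone, rga was counted and l(2)NC136 was not, and with no hexamer, BicC and glo were counted and twin was not. Among the other hosts, 23 of 78 with aauaaa alone were counted (29.5%, 19.7% to 40.9%). With no hexamer 41 of 71 were counted (57.7%, 45.4% to 69.4%). With the pair listed for sqd, 14 of 36 were counted (38.9%, 23.1% to 56.5%).

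The 3 counted sisRNAs held 209 reads, 1.87% of the 11169 reads of the counted list. Their counts were 128, 53 and 28, with a median of 53. The other 137 counted sisRNAs ranged from 8 to 869 reads, around a median of 48 (95% interval from order statistics 40 to 61), and had quartiles of 25 and 88. The 3 sisRNAs thus stood in the upper, middle and lower parts of the list.

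The hnRNP gene glo, FBgn0259139, had the most reads of the 3. Its sisRNA on arm 3R had 128 reads (interval 107 to 152), 1.15% of all listed reads. It ranked 24 of 140 in the counted list and 3 of 37 on its arm. Among the 44 counted sisRNAs without a hexamer it ranked 4, where the other 42 apart from it and BicC had a median of 36 reads (25 to 56) and a highest value of 212. The authors gave it 2 centres, at 7643364 and 7644076 on 3R in dm3, which lie 712 bases apart. Only 5 counted sisRNAs had 2 centres, and the distance was shortest in glo. It was 873 bases in CG31211 (35 reads), 1927 in CG1399 (201 reads), 2316 in Katanin-60 (56 reads) and 11867 in fs(1)h (39 reads). The file does not divide the reads over the centres. An even division would give glo 64 reads per centre, a count 1.21 times that of rga (ratio interval 0.826 to 1.77), a ratio whose interval includes 1.

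The CCR4-NOT subunit gene rga, FBgn0017550, encodes NOT2 and is named Rga in the annotation used here. Its sisRNA, centred at 1435138 on 3R in dm3, had 53 reads (39.7 to 69.3), 0.475% of all listed reads. It ranked 64 of 140 and 15 of 37 on its arm, with 1 other sisRNA at the same count. Among the 24 counted sisRNAs with aauaaa alone it ranked 14, and the other 23 had a median of 64 reads (24 to 74). The count of rga lay inside that interval.

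The RNA-binding protein gene BicC, FBgn0000182, had the fewest reads of the 3. Its sisRNA, centred at 16045470 on 2L in dm3, had 28 reads (18.6 to 40.5), 0.251% of all listed reads. It ranked 98 of 140 and 14 of 19 on its arm, and 3 other sisRNAs had the same count. Among the 44 without a hexamer it ranked 26. The other 18 counted sisRNAs on 2L had a median of 41.5 reads (28 to 64).

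**Figure D1:**
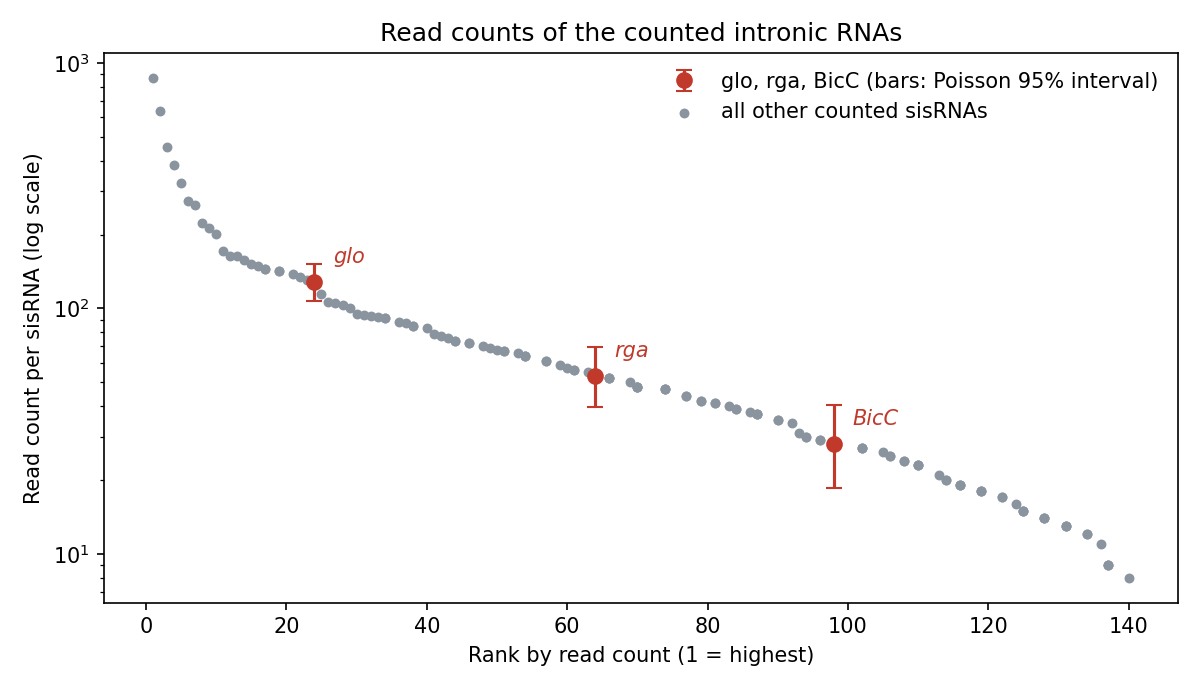
Read count per sisRNA (log scale) against its rank in the counted list of 140 sisRNAs, where tied counts share a rank. Red points are glo (128 reads, rank 24), rga (53 reads, rank 64) and BicC (28 reads, rank 98) with Poisson 95% intervals, and grey points are all other counted sisRNAs.

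Between the 3 genes the differences in total listed reads exceeded counting error. The ratio of reads was 2.42 for glo over rga (exact conditional interval 1.74 to 3.39), 4.57 for glo over BicC (3.02 to 7.15) and 1.89 for rga over BicC (1.18 to 3.11). None of these intervals includes 1. They compare listed reads of single values, without a replicate and without lengths, and are no test of abundance. The count of glo also covers 2 centres. Divided evenly, it would be 1.21 times that of rga (0.826 to 1.77), an interval that includes 1. The sisRNAs of glo and BicC, which share the absence of a hexamer, lay farther apart than either did from rga.

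**Figure D2:**
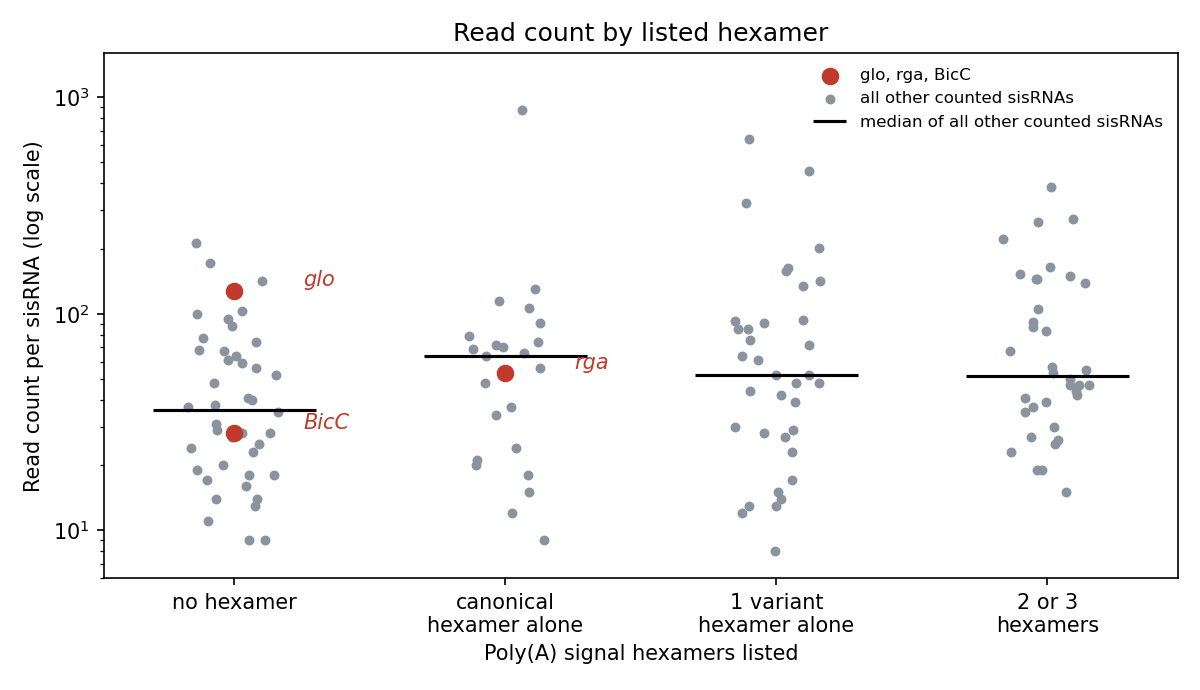
Read count per sisRNA (log scale) by the hexamers listed for it. Red points are glo, rga and BicC, grey points all other counted sisRNAs, spread sideways for visibility, and black lines the medians of the other sisRNAs, which are 36 reads with no hexamer, 64 with the canonical hexamer alone, 52 with 1 variant alone and 51.5 with 2 or 3 hexamers. In the group with no hexamer glo lies above the median and BicC below it.

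On their own arms, the sisRNAs nearest in read count differed from these 3 in hexamers in all but 1 case. Nearest to glo were Pyk, which encodes pyruvate kinase, with 142 reads and no hexamer, and CG9795 with 106 reads and aauaaa. Nearest to rga were Fmr1 with 53 reads and CG9399 with 55 reads, both with aauaaa and auaaaa. Nearest to BicC were sec71 with 28 reads and auaaaa, and dmGlut, listed under an older symbol, with 30 reads and aauaaa and auaaaa. Apart from CG9795, each of these counts lay inside the counting interval of the gene it was nearest to, so their order was not resolved. The count of CG9795 lay just below the interval of glo (107 to 152). That interval leaves out the counting error of CG9795 itself, so whether their order is resolved was not tested.

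By position, 4 of the 6 genes (66.7%, 22.3% to 95.7%) were on 3R, rga, twin, glo and sqd, 1 was on 2L (BicC) and 1 on 2R (l(2)NC136). Of the 289 other hosts 59 were on 3R (20.4%, 15.9% to 25.5%), a share below the interval of the 6 genes. The genes were chosen from the list and not drawn from it, so this is a description and not a test. Of these 4 genes on 3R, a centre was listed for rga and glo only, and neither was the nearest counted sisRNA of the other. In dm3 the nearest other counted sisRNA to rga was that of Madm, 134779 bases away (16 reads), followed by that of snr1 at 137920 bases (31 reads). The nearest to glo was that of LK6, a protein kinase gene, at 54382 bases (103 reads), followed by that of CG31211 at 132794 bases. BicC stood alone on its stretch of 2L, with ck, a myosin gene, nearest at 988121 bases (85 reads). Within 200000 bases there were 3 other counted sisRNAs for rga, 2 for glo and 0 for BicC.

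The gene models of the 6 hosts were read from the Ensembl annotation of BDGP6.54, which is another build than dm3, so lengths and neighbours were used and no coordinate was moved between the builds. The intron that holds each sisRNA was therefore not located. All 6 genes matched, with l(2)NC136 found under its present name Not3 (FBgn0033029), twin as FBgn0011725 and sqd as FBgn0263396. They had 8 to 12 distinct introns over all transcripts, where overlapping alternative forms count separately, with a median of 9.5, against a median of 7 (7 to 8) for 281 other hosts with an annotated intron. Gene lengths ranged from 4215 bases in glo to 25073 bases in twin, with a median of 6764, against 6638 (5864 to 7964) for the other hosts. The longest introns had a median of 1914 bases in the 6 genes and 1988 (1399 to 2457) in the other hosts. The medians of gene length and longest intron thus lay inside the intervals of the other hosts, and the median number of introns lay above it. These differences were not tested.

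The longest introns of the genes differed widely. In twin, the catalytic CCR4 deadenylase gene, the longest intron had 19648 bases, 78.4% of the gene, and lay between coding exons. In sqd it had 5773 bases, and the intron of 5220 bases that is next in length is a shorter form that lies within it. In l(2)NC136 it had 2383 bases, and each of its other 8 introns had under 100 bases, with 79 as the next longest. In rga the longest had 1446 bases and lay in the 5′ UTR, with 630 bases for the next. In glo it had 1248 bases, and the next, of 667 bases, lies within it. In BicC it had 578 bases and also lay in the 5′ UTR, followed by 547.

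The longest introns of the 3 counted genes (578 to 1446 bases) and of the 3 uncounted genes (2383 to 19648 bases) did not overlap. With the longest transcript of each gene alone, sqd had 2543 bases and glo 667, the other 4 values were the same, and the ranges remained apart. The same order was seen in the medians of the other hosts. With a read count, 132 other hosts had a median longest intron of 1122 bases (869 to 1432), and without one, 149 had 3518 bases (2287 to 5189). The quartiles overlapped, at 552 and 3028 bases with a read count and 992 and 10632 without. Among other listed hosts of the same pathways, described below, the separation did not hold. The uncounted hrg (858 bases) and Pabp2 (406 bases) were shorter than the counted rga and glo. The uncounted PAN3 (10254) and rump (2049) and the counted Fmr1 (1316) and piwi (1120) kept the order relative to the chosen genes. No test was made of the difference between counted and uncounted hosts, since the sources used here do not say how hosts were taken into the counted list. The longest intron need not be the one that gave the RNA.

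**Figure D3:**
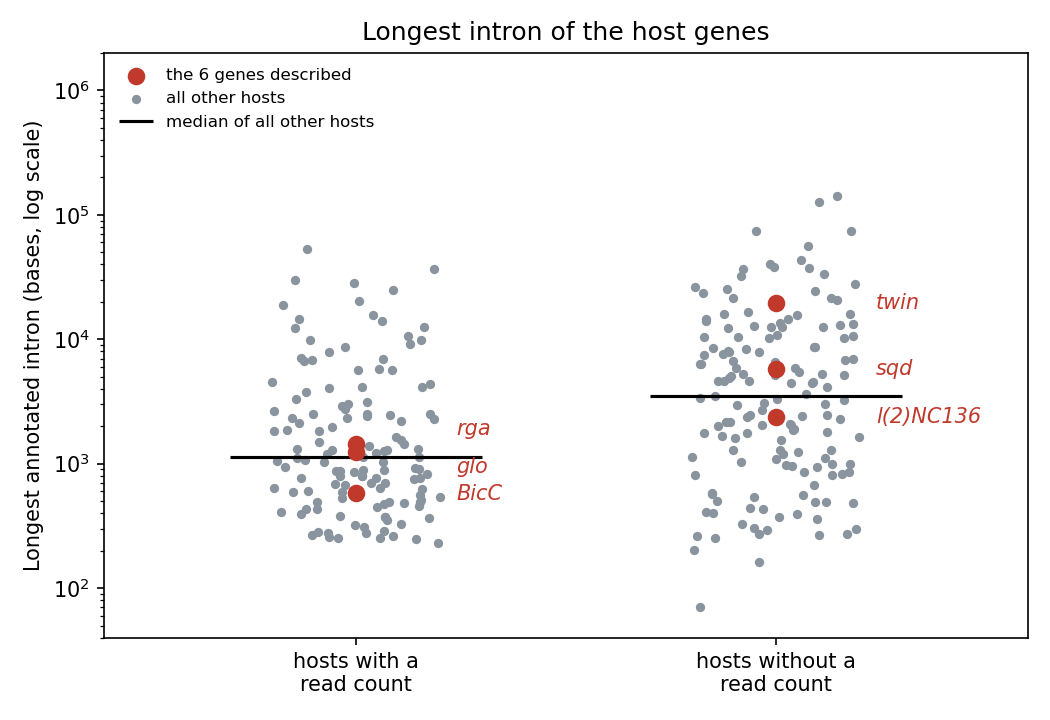
Longest annotated intron (bases, log scale) of hosts with a read count and hosts without one. Red points are the 6 genes described, grey points the other 281 hosts with an annotated intron, spread sideways for visibility, and black lines their medians of 1122 bases with a read count and 3518 bases without. The red points of BicC, glo and rga lie under those of l(2)NC136, sqd and twin. The grey points overlap, at 232 to 53559 bases with a read count and 70 to 142584 bases without.

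An annotated intronic RNA lies inside rga. The annotation holds a non-coding gene named sisRNA:1, on the same strand as rga and 367 bases long. It lies wholly within an intron of the coding part that has 2 annotated forms, of 630 and 612 bases, so it is not in the longest intron of the gene. On the opposite strand the annotation holds asRNA:ASTR, an antisense RNA of 2012 bases that lies within the bounds of rga and covers all 367 bases of sisRNA:1. The use of strand in counting is not stated in the sources used here. Of the 8 distinct introns of rga 4 overlap asRNA:ASTR, both forms of the one that holds sisRNA:1 among them. If strand was not used, reads of these 4 introns and of asRNA:ASTR cannot be told apart where they overlap. The other 4, the 1446-base intron included, lie outside it. The authors set no antisense or cis-NAT (cis-natural antisense transcript) remark on rga or on any of the other 5 genes. Whether the 53 reads come from sisRNA:1 could not be tested, because the centre is given in dm3.

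Annotated features also overlapped the other hosts. The long intron of twin held a protein-coding gene on the same strand, CG17786, of 4088 bases, and a flea transposable element of 5019 bases on the opposite strand. The first 863 bases of twin were overlapped from the opposite strand by cav, a telomere protein gene. The 2383-base intron of l(2)NC136 held a Rt1b transposable element of 1116 bases on the opposite strand, and CG1344 overlapped 373 bases of the gene outside its introns. COX5A, which encodes a subunit of cytochrome c oxidase, overlapped 62 bases of glo outside its introns. All 6711 bases of BicC were shared with a second protein-coding gene on the same strand, CG45084, so reads of these 2 genes cannot be told apart. No annotated gene or element overlapped sqd. None of these overlapping genes was itself listed as a host.

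**Figure D4:**
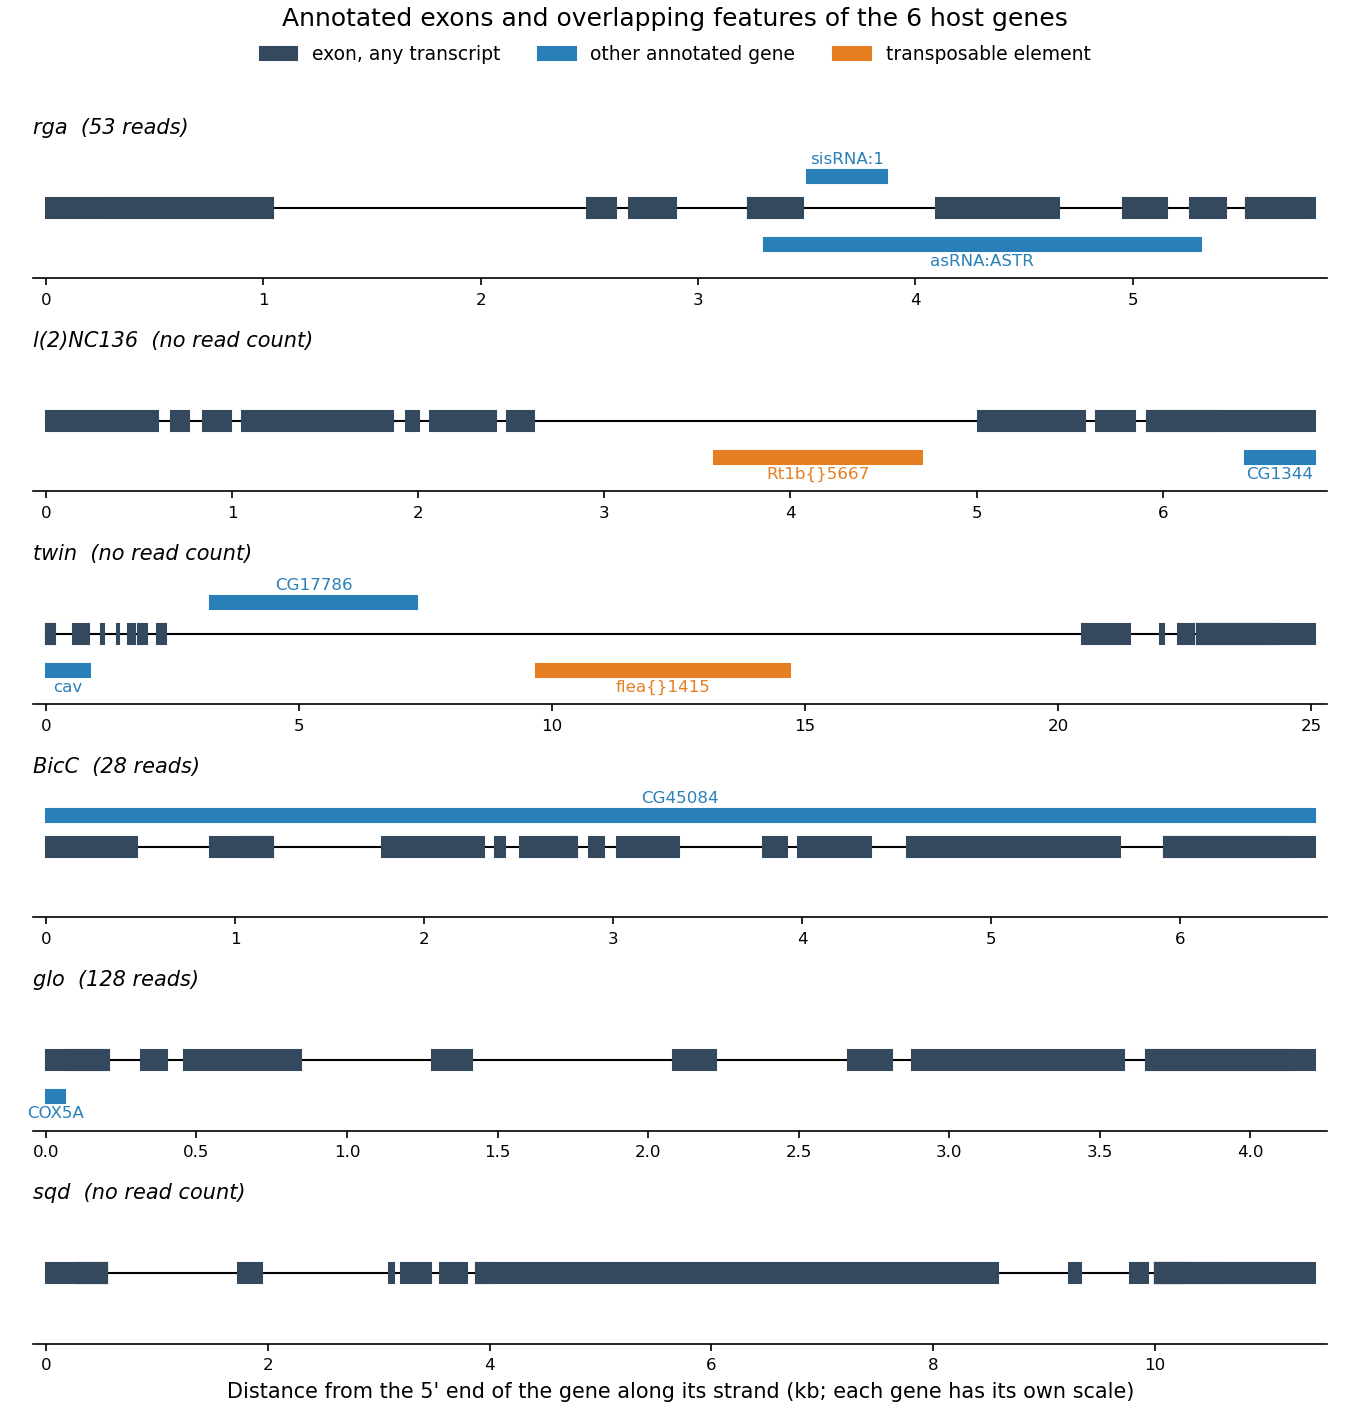
Annotated exons of the 6 hosts in any transcript (dark boxes on a line), drawn from the 5′ end of each gene along its strand in kb, each gene on its own scale. Features on the host's strand are above the line and those on the opposite strand below it, with genes in blue and transposable elements in orange. Exons of 1 transcript can cover an intron of another, as for the 5773-base intron of sqd, and sisRNA:1 sits in an intron of rga across from asRNA:ASTR.

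Counted over genes, a transposable element lay inside an intron in 2 of the 6 hosts (33.3%, 4.33% to 77.7%), in 50 of the 281 other hosts (17.8%, 13.5% to 22.8%) and in 6.94% of 11819 protein-coding genes with an intron. Another annotated gene lay inside an intron in 2 of the 6 (rga and twin) and in 63 of 281 other hosts (22.4%, 17.7% to 27.8%). In rga this gene was sisRNA:1, itself an annotated intronic RNA, and in twin it was the protein-coding CG17786. A gene on the opposite strand overlapped 4 of the 6 (66.7%, 22.3% to 95.7%) and 109 of 281 other hosts (38.8%, 33.1% to 44.8%). With overlap of an intron required, these were 2 of 6 (rga and twin) and 73 of 281 (26.0%, 21.0% to 31.5%). Of the 11819 protein-coding genes, 9.78% had a gene inside an intron and 40.2% had one on the opposite strand. The gene on the opposite strand overlapped an intron in 20.8%. In each case the interval of the 6 genes contained the share of the other hosts. The genes were chosen, so this too is a description and not a test.

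The 6 genes were then set among 62 genes of the same pathways, in 5 lists drawn up with earlier results of these data known. In all 12 of these genes were hosts in the longer list and 5 had a read count. The background was 2.41% of the 11819 protein-coding genes with an intron listed as hosts, and 46.4% of hosts with a read count. Since the 6 genes were picked from the host list and belong to these lists, nothing is read from the listed counts. The CCR4-NOT list gave 3 of 9, with 1 counted. The subunits that were not listed are Not1, the scaffold, Pop2, the second deadenylase, Rcd-1, Not10, Not11 and Cnot4. The longest introns of the 3 listed subunits ranged from 1446 to 19648 bases, with a median of 2383, and those of the 6 others from 60 to 1800 bases, with a median of 640.5. The ranges overlapped, since Not1 with 1800 bases and Pop2 with 1495 bases exceeded rga.

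Other deadenylation and decapping factors gave 1 of 14. This was PAN3, a subunit of the PAN2-PAN3 deadenylase, listed as CG11486 on 3L with auaaaa and no read count. Its longest intron had 10254 bases, against a median of 288 in the 11 unlisted genes with an intron. Recruiters and translational repressors gave 3 of 17, all with a read count. Beside BicC these were Fmr1 with 53 reads (39.7 to 69.3), equal to rga, and piwi, an Argonaute gene of the piRNA pathway, with 37 reads (26.1 to 51.0). BicC had the fewest reads of these genes. Fmr1, with the same count as rga, stood in the same ratio of 1.89 to BicC (1.18 to 3.11), and the intervals of piwi and BicC overlapped. Their longest introns had 578 bases in BicC, 1120 in piwi and 1316 in Fmr1, against a median of 4485 bases in the 14 that were not listed. The unlisted genes ranged from 64 bases in bam, a germ cell differentiation factor, to 132737 bases in pum, a translational repressor of maternal mRNA, so the 3 listed genes lay inside their range.

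Poly(A) polymerases and poly(A)-binding factors gave 2 of 9, the poly(A) polymerase gene hrg and the nuclear poly(A)-binding protein gene Pabp2. Both lay on 2R with aauaaa alone, as did l(2)NC136, and neither had a read count. On 2R, 20 of the 57 other hosts (35.1%) had aauaaa alone. Over all arms, 23 of the 78 other hosts with aauaaa alone (29.5%) had a read count. The longest introns had 858 bases in hrg and 406 in Pabp2, against a median of 2347 in the 7 unlisted genes. The list drawn up for hnRNP genes, which also holds otu and ps, gave 3 of 13. These were glo, sqd and rump, which was listed as Hrp59. The entry of rump matched that of sqd, with aauaaa and auaaaa on 3R and no read count. On 3R, 12 of the 59 other hosts (20.3%) had this pair alone. The longest introns of these 3 genes were 1248 bases in glo, 2049 in rump and 5773 in sqd. The 10 genes of that list that were not hosts, otu and ps among them, had a median of 5367 bases. Listed genes thus had shorter longest introns by the median than unlisted ones in the repressor, poly(A) factor and hnRNP lists, and longer ones in the CCR4-NOT list and, with the single gene PAN3, in the list of other deadenylation and decapping factors. These medians rest on 1 to 3 listed genes each, and the difference was not tested. They do not describe the whole longer list, where the 281 other hosts had a median longest intron of 1988 bases (1399 to 2457). The 11819 protein-coding genes with an intron, hosts included, had a median of 254 bases (238 to 268).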

How the data were processed

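Unfertilized y w eggs gave 3 RNA libraries, 1 per group. The authors deposited 2 lists, with positions in dm3, the build named per the submitters' processing notes. The read counts in the counted list are whole numbers the authors deposited without normalization, in 1 column tied to no library. The aligner, the counter, any use of strand and the rule for calling sisRNAs are not stated in the sources used here.

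The members and gene lists were chosen with earlier results of these data known. Members were matched by symbol without regard to case or bracketed remarks. Named genes were the 6 members, listed genes of 5 pathway lists, and for each counted member the 2 sisRNAs of its arm nearest in read count. The entries bl and Hrb57A of the hnRNP list proved to be 1 gene and were counted once. Of 295 hosts 288 matched the Ensembl release 115 annotation of BDGP6.54 by symbol or by RefSeq synonym, and 287 had an intron. The gene-structure alternatives and the division of the glo count were added after the data were seen. Percentiles count ties as 0.5. No test was made, because each value is single. Intervals and the parsing of introns were tested on simulated data. Python 3.11.15, numpy 2.4.6, scipy 1.17.1 and matplotlib 3.10.9 were used.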

Additional observations from a re-analysis of the deposited data

How the results depend on the processing

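The median of the counted members was 53 reads, the count of rga, under 4 alternatives. These removed none of the 3 members, so the value could not change and is no check of it. The median was 40.5 reads, inside the counting interval of rga, without sisRNAs with 2 listed centres, which removes glo. The median of all other counted sisRNAs stayed within its interval of 40 to 61, but moved from 48 to the upper bound of 61 with a minimum of 20 reads. The median of the counted members, above that of the others in the main setting, was then below it. The percentile of a member is the share of other counted sisRNAs with fewer reads. That of rga was 54.3 and stayed within the range its counting interval allows, with 44.3 at a minimum of 20 reads. That of BicC was 29.1 and moved to 13.6 with a minimum of 20 reads, since sisRNAs below it are removed. That of glo was 83.5. It moved to 79.8 with a minimum of 20 reads, to 82.4 without sisRNAs remarked as antisense or cis-NAT, to 94.4 among sisRNAs of 3R alone and to 61.5 with reads divided over the centres, where its count was 64 reads in place of 128. Matching by symbol only listed 10 of the 12 pathway genes. Other hosts had a motif in 75.4% of the longer list and 69.3% of the counted list. With the longest transcript only, the longest intron was 2543 bases in sqd and 667 in glo, and members with a gene on the opposite strand numbered 2 in place of 4 with overlap of an intron required. The planned searches for hexamers in member introns were not run, since no genome sequence was used here. No paired analysis was possible because the groups have a single library each and the values are linked to none of them.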

Other observations

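The annotation of BDGP6.54 names 10 genes as sisRNA, and 5 of them lie inside an intron of a listed host. Beside sisRNA:1 in rga these are sisRNA:2 of 498 bases in mbt on X, sisRNA:3 of 289 bases in csp on 3L, sisRNA:CR46358 of 216 bases in CG9775 on 3R and sisRNA:CR46364 of 549 bases in RpS27, a ribosomal protein gene, on 3R. The hosts had 53 reads in rga, 42 in mbt, 64 in csp and 69 in RpS27, and CG9775 had no read count. The count of rga was thus between those of the other counted hosts of annotated sisRNAs, and the 4 counts lay between 42 and 69. How these annotations were made, and whether they share data with these lists, was not tested, so the overlap is given as a description.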
